A study of Mus musculus with 6 samples.

Results

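The 9 genes described here, Ets1, Ets2, Fli1, Erg, Etv6, Elf1, Elf4, Elk3 and Gabpa, encode transcription factors of the ETS family. They were chosen by gene symbol, and each was represented by the probe set that carried only that symbol and had the highest mean over the 6 arrays. All 9 of the 9 had such a probe set, out of 19938 genes in all. The arrays came from 3 MYB knockdown mice and 3 wild type mice, 1 array per mouse. Every mouse was a C57BL6 male aged 4 weeks, and no treatment is named for either group. The cells, called K11bL, were taken from bone marrow by flow cytometry as Kit-positive, CD11b-positive and low for lineage markers. The title of the series calls them myeloproliferative. The allele or agent that lowers Myb and the cells in which it acts are not stated in the labels, so how far the mice model a loss of Myb cannot be judged from them. The design compares knockdown with wild type, and asks here how a lowered Myb is accompanied by changes in ETS factors of the same sorted fraction.

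ETS factors share a winged helix-turn-helix DNA-binding domain that reads a GGAA core, and differ in their partners and in whether they activate or repress. In the bone marrow, ERG and FLI1 work in stem cells and in megakaryocytes, ETV6 is a repressor needed for adult haematopoiesis, and PU.1, encoded by Spi1, drives the myeloid lineages. ETS1 is best known from lymphocytes. MYB binds many of the same blood cell enhancers as ETS and RUNX factors.

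Values are log2 expression as deposited. A difference is the knockdown mean less the wild type mean, in log2 units, and the error after it is the standard error (SE) from limma. The adjusted p-values are limma's, by the Benjamini-Hochberg method over all 13956 genes that remained after the dimmest 30% were left out. A gene is said to have risen or fallen when the adjusted p was under 0.05. All 9 ETS members were bright enough to be tested. Of all genes tested 1619 were called, or 11.6%, with 854 rises and 765 falls. After the arrays were centred on their medians the split was 1433 rises and 593 falls. In the reported fit 3578 of the 13956 genes had an unadjusted p under 0.05 by limma. Myb itself was lower in every knockdown mouse, with log2 values of 11.26, 11.08 and 11.14 in the knockdown against 11.47, 11.46 and 11.46 in the wild type, a difference of -0.30 ± 0.06 (adjusted p = 0.0196). That call was lost when any single wild type mouse was left out (adjusted p from 0.09 to 0.0963), without knockdown mouse 2 (0.0777), after median centring (0.074) and without the trend (0.0662). Of the sort markers, Kit lay between 10.21 and 10.24 in the knockdown and between 10.38 and 10.58 in the wild type, a difference of -0.27 ± 0.08 without overlap (adjusted p = 0.06). It was called lower in 4 of the 14 alternatives, for example without knockdown mouse 3 (adjusted p = 0.0145). Itgam, which encodes CD11b, lay between 9.07 and 9.85 in the knockdown and between 9.81 and 9.90 in the wild type, a difference of -0.39 ± 0.17 (adjusted p = 0.202). It was called lower in 2 of the 14, and was -0.59 without knockdown mouse 1 (adjusted p = 0.0239) and -0.20 without knockdown mouse 3. Both markers were thus well above the dimness limit of 5.11 on all arrays. Knockdown mouse 3 stood apart: its array correlated with the other knockdown arrays at 0.977 and 0.984, where those 2 correlated at 0.994 with each other.

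One of the 9 ETS genes passed the test. Ets1, the founding member of the family and a regulator of lymphoid development, fell by 1.11 ± 0.15 on the log2 scale, which is 2.15-fold (95% interval 1.69 to 2.74), while no member rose. Etv6 came closest to a rise, and the remaining 7 members differed from wild type by at most 0.25 in either direction. The 1 call among 9 stands beside 11.6% of all genes tested, and the 1 fall beside 5.48%. The groups did not overlap for 4 of the 9 members, beside 34.3% of all genes tested. The knockdown lay above in 1 of them, beside 19.9% of all genes, and below in 3, beside 14.4%. The median difference of the 9 was -0.04, against 0.02 over all genes tested.

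Ets1 had log2 values of 7.20, 6.70 and 6.72 in the knockdown mice, against 8.13, 7.89 and 7.92 in the wild type mice. The knockdown averaged 6.87 ± 0.28 and the wild type 7.98 ± 0.13 (SD, n = 3 each), and limma gave an adjusted p of 0.00273. The highest knockdown mouse lay well under the lowest wild type mouse, and knockdown mice 2 and 3 lay close together. Without knockdown mouse 3 Ets1 fell by 1.03, with an adjusted p of 0.000889 by limma. The fall was called under each of the 14 alternative settings run, with differences between -1.27 and -1.02 and adjusted p-values between 2.08e-05 and 0.0205.

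**Figure D1:**
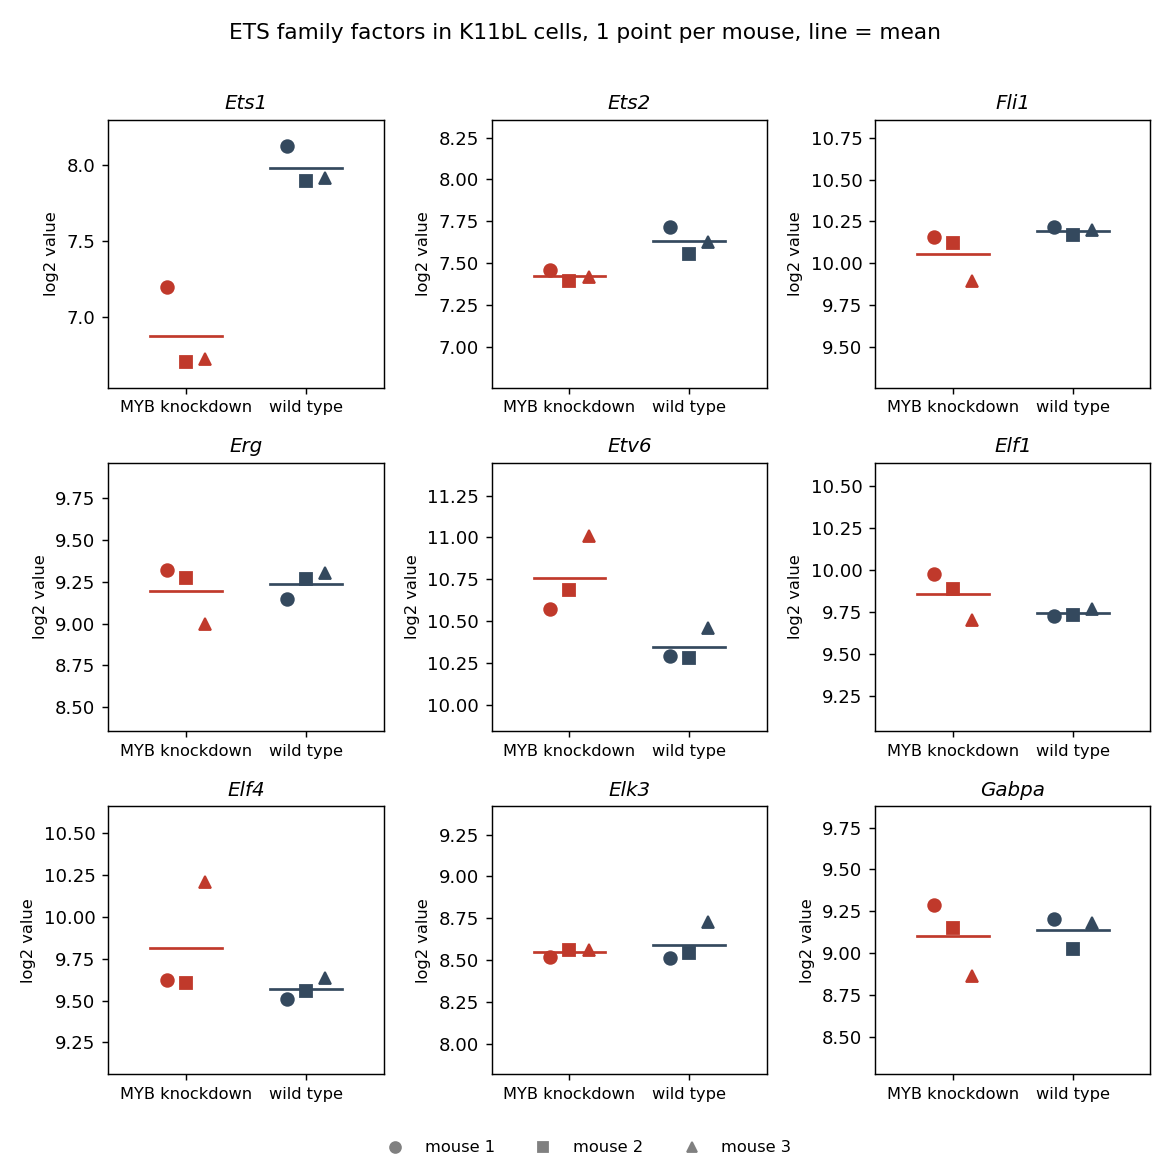
Log2 expression of the 9 ETS genes in each mouse, with MYB knockdown left of wild type in every panel; circles, squares and triangles are mice 1, 2 and 3 of a group, horizontal lines are group means, and each panel has its own log2 axis that does not start at 0. Ets1 lies between 6.70 and 7.20 in the knockdown and between 7.89 and 8.13 in the wild type, whereas the groups overlap for Erg, Elf1, Elf4, Elk3 and Gabpa.

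Because the fraction is a mixture measured in bulk, fewer cells of a type and less RNA per cell cannot be told apart. Some markers of B lymphoid cells, a lineage that a low lineage gate is meant to reduce, were also lower in the knockdown. Of 7 genes with a probe set 6 were tested and 3 fell, beside 5.48% of all genes tested, namely Igll1, Dntt and Ebf1, with differences of -2.06, -1.40 and -1.19. Cd79b, the brightest of the list, had a difference of 0.04 (adjusted p = 0.853), and Pax5 and Vpreb1 had -0.29 and -0.23 (adjusted p = 0.235 and 0.165); these 3 were named after their values were seen. The mean log2 level over these 7 B lymphoid genes ran from 6.15 to 6.39 in the knockdown and from 6.76 to 7.35 in the wild type. Within the wild type, mouse 1 had the lowest mean, 6.76, and the highest Ets1, 8.13. Within the knockdown, mouse 1 had the highest mean, 6.39, and the highest Ets1, 7.20. Knockdown mouse 2 had the lowest of both, 6.15 and 6.70. Of the B lymphoid genes Cd79a lay under the dimness limit and was not tested. Of the T and NK markers 3 were tested and limma called 0, where 0 had an unadjusted p under 0.05. The mean over the 8 genes was 4.82 to 5.07 in the knockdown and 4.87 to 5.03 in the wild type, with Cd3d, Cd3g, Cd8a, Klrb1c and Cd2 under the dimness limit. The brightest of the T and NK list were Cd3e and Cd4, with differences of -0.03 and -0.10. The part of the B lymphoid markers in the fall of Ets1 was not tested. Without knockdown mouse 2 or wild type mouse 2 or 3, 2 B lymphoid genes fell. Without knockdown mouse 3, 4 of them fell, beside 1397 of all 13956 genes tested.

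The genes whose profile over the 6 arrays lay nearest to that of Ets1 were Gca, Nlrp1a and Tspan6. Likeness was the root mean square difference between the 6 log2 values after each gene was centred on its own mean. It was 0.06 for Gca, which encodes the calcium-binding protein grancalcin, 0.06 for Nlrp1a, an inflammasome sensor, and 0.07 for Tspan6, a tetraspanin. Their differences were -1.07, -1.08 and -1.06. Closeness to the difference of Ets1 was fixed by choosing genes for likeness over the same 6 values, and is not a separate result.

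Fli1 is the protein-coding gene next to Ets1 on chromosome 9, with 0 others between them in the RefSeq annotation, and encodes an activator of megakaryocyte genes. Its log2 values were 10.15, 10.12 and 9.89 in the knockdown and 10.22, 10.17 and 10.20 in the wild type. The groups did not overlap, but knockdown mice 1 and 2 lay only just under the wild type range and mouse 3 further below. The difference of -0.14 ± 0.09 was not called (adjusted p = 0.407), with a 95% interval of -0.35 to 0.07 beside -1.46 to -0.76 for Ets1. Without knockdown mouse 3 the difference of Fli1 was -0.06.

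Erg encodes the closest relative of FLI1 and is needed to maintain stem cells. It had log2 values of 9.32, 9.27 and 8.997 in the knockdown and 9.15, 9.26 and 9.30 in the wild type. Knockdown mice 1 and 2 lay inside or just above the wild type range, and knockdown mouse 3 below it. The difference was -0.04 ± 0.11 (95% interval -0.30 to 0.22, adjusted p = 0.883), and its sign turned without knockdown mouse 3 (0.06), after median centring (0.03) and with array weights.

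Ets2, a relative of ETS1 that responds to growth factor signalling through the RAS and ERK pathway, is in turn the protein-coding neighbour of Erg on chromosome 16. Its log2 values were 7.46, 7.40 and 7.41 in the knockdown mice and 7.71, 7.55 and 7.62 in the wild type mice. All knockdown mice lay below all wild type mice, with a difference of -0.21 ± 0.10 that was not called (95% interval -0.43 to 0.01, adjusted p = 0.227). Over the 14 alternatives the difference stayed between -0.25 and -0.13, and the adjusted p between 0.063 and 0.555.

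Etv6, the repressor also known as TEL, had log2 values of 10.57, 10.69 and 11.01 in the knockdown and 10.29, 10.28 and 10.46 in the wild type. Each knockdown mouse lay above each wild type mouse, and mouse 3 was the highest. The difference of 0.41 ± 0.12 (1.33-fold, 95% interval 1.10 to 1.60) missed the threshold narrowly (adjusted p = 0.0585). It passed in 5 of the 14 alternatives, among them without knockdown mouse 1 (0.50, adjusted p = 0.0324) and without knockdown mouse 3 (0.29, adjusted p = 0.0162), after median centring (0.49, adjusted p = 0.0313) and with array weights (0.27, adjusted p = 0.0208). The direction was the same in all 14 alternatives, while the call was made in some and not in others. The profiles nearest to that of Etv6 were those of Ube2r2, a ubiquitin-conjugating enzyme, Tcof1, a nucleolar protein, and Opa3, a mitochondrial protein. Root mean square differences were 0.03 each. Differences between groups were 0.47, 0.40 and 0.37, close to that of Etv6 because the genes were chosen for likeness.

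**Figure D2:**
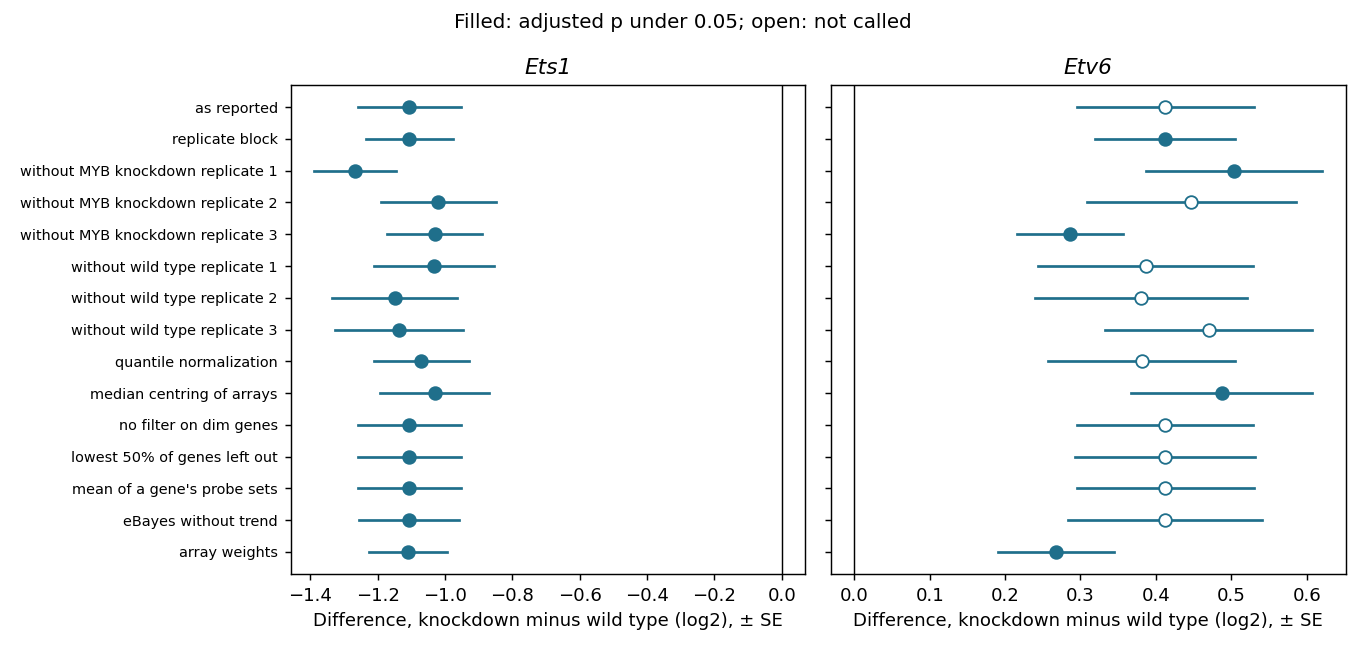
Difference between MYB knockdown and wild type (log2, horizontal axes) with its SE for Ets1 (left) and Etv6 (right) under the reported setting and 14 alternatives (rows); filled points have an adjusted p under 0.05. Ets1 stays between -1.27 and -1.02 with all points filled, and Etv6 stays above 0, between 0.27 and 0.50, with points filled in some settings and open in others.

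Elf1 and Elf4 belong to the ELF branch of the family. ELF1 binds enhancers of blood cell genes, among them those of Tal1, and ELF4 takes part in the control of quiescence in stem cells and of NK cell development. Elf1 had log2 values of 9.98, 9.89 and 9.70 in the knockdown and 9.73, 9.73 and 9.77 in the wild type, so that knockdown mice 1 and 2 were above the wild type range and mouse 3 just below it. The difference was 0.11 ± 0.09 (95% interval -0.10 to 0.33, adjusted p = 0.527), and without knockdown mouse 3 Elf1 was called higher by 0.19 (adjusted p = 0.0378). Without knockdown mouse 1 its difference was 0.05. Elf4 had 9.63, 9.60 and 10.21 in the knockdown and 9.51, 9.56 and 9.64 in the wild type. Only knockdown mouse 3 left the range of the others, and the difference of 0.25 ± 0.16 (adjusted p = 0.402) was 0.05 without it. A second, dimmer probe set of Elf4 had 5.56, 5.61 and 5.67 in the knockdown and 5.35, 5.43 and 5.23 in the wild type, a difference of 0.27 with no overlap and no such gap at mouse 3.

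Elk3, a ternary complex factor that joins serum response factor (SRF) on DNA, had log2 values of 8.52, 8.56 and 8.56 in the knockdown and 8.51, 8.54 and 8.73 in the wild type. The groups overlapped, with a difference of -0.04 ± 0.10 (95% interval -0.27 to 0.18, adjusted p = 0.85) whose sign turned after median centring (0.03) and without wild type mouse 3 (0.02). Gabpa, which encodes the DNA-binding subunit of GABP, had 9.29, 9.15 and 8.87 in the knockdown and 9.21, 9.02 and 9.18 in the wild type. Again knockdown mouse 3 was the lowest of the 6. The difference was -0.03 ± 0.13 (95% interval -0.32 to 0.25, adjusted p = 0.918), and it was 0.08 without that mouse and 0.04 after median centring.

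Knockdown mouse 3 was the lowest of all 6 arrays for 4 members (Fli1, Erg, Elf1 and Gabpa) and the highest for 2 (Etv6 and Elf4). It lay outside the range of the other 5 arrays for 66.7% of the members and for 62.7% of all genes tested, shares that lie close to each other. Ets1, Ets2 and Elk3 did not show it. With that mouse left out, 3 of the 9 members were called, the fall of Ets1 and rises of Etv6 and Elf1, beside 27.2% of all genes tested.

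**Figure D3:**
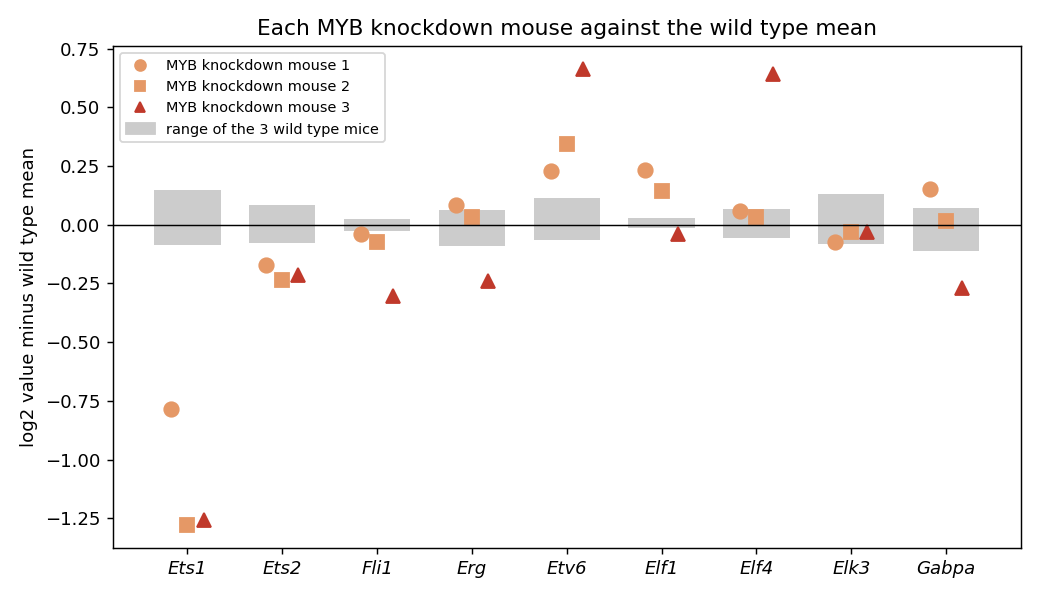
Log2 value of each MYB knockdown mouse minus the wild type mean (vertical axis) for the 9 ETS genes (horizontal axis); grey boxes are the range of the 3 wild type mice. Ets1 lies 0.78 to 1.28 below the wild type mean in all 3 knockdown mice, while knockdown mouse 3 (dark triangles) departs from the other 2 in Fli1, Erg, Etv6, Elf1, Elf4 and Gabpa.

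RefSeq promoter windows of GRCm38.p6, 250 bases before to 50 after a start site, were matched by symbol for 7 of the 9 members, 11 windows in all. Ets1 and Fli1 were not matched. The windows were searched on both strands for the letters AACNG, the core of MYB sites, and for CCGGAA, a longer form of the ETS core. Windows for 3 members are printed, Etv6 as the member nearest to a rise, Ets2 as one whose groups did not overlap, with the knockdown below, and Gabpa as the member whose window alone holds the ETS letters; capitals mark every match to either motif. In Etv6 the capitals are 3 matches of AACNG on the opposite strand (written CAGTT), at bases 201, 248 and 261 of the window. In Ets2 they are AACCG at base 69 and CGGTT at base 243. In Gabpa they are AACAG at base 130 and the ETS letters on the opposite strand, TTCCGG, at base 159.
Etv6 (chr6:134035450-134035749, plus strand): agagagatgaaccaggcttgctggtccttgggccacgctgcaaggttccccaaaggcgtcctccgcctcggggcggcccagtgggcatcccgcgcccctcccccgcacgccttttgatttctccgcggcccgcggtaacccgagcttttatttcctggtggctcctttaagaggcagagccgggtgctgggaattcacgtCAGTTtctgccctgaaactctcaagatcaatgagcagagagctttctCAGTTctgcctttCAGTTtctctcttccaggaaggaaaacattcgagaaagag
Ets2 (chr16:95702157-95702456, plus strand): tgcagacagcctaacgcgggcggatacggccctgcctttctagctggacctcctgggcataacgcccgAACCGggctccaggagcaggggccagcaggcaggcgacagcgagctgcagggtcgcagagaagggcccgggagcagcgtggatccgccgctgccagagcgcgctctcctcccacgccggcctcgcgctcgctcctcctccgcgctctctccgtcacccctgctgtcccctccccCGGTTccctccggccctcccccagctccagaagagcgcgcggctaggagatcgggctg
Gabpa (chr16:84834874-84835173, plus strand): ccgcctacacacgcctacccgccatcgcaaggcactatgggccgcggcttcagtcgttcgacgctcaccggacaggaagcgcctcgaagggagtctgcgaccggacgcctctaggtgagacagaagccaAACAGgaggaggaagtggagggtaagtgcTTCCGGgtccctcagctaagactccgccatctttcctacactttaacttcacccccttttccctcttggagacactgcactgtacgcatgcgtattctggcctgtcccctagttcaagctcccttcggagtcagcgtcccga

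The letters AACNG are common, with a match in 80.3% of the 32851 promoter windows of that length, so their presence in the windows of Etv6 and Ets2 sets neither apart. CCGGAA occurs in 14.9% of the windows. Of the members' windows, that of Elk3 and 1 of the 2 of Elf4 held neither set of letters. The shorter GGAA core was not searched for, so windows without CCGGAA can still hold it.

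Among the 18 other ETS genes listed, 17 had a probe set, 13 were tested, 1 rose and 0 fell, beside 6.12% and 5.48% of all genes tested. Of the 13, 3 had an unadjusted p under 0.05 by limma, beside 3578 of all 13956 genes tested. The gene that rose was Spib, which encodes a relative of PU.1 known from B cells and plasmacytoid dendritic cells. Its log2 values were 6.39, 6.43 and 6.98 in the knockdown and 5.42, 5.70 and 5.81 in the wild type, a rise by 0.96 ± 0.18 (1.94-fold, 95% interval 1.47 to 2.56, adjusted p = 0.0108). Every knockdown mouse lay above every wild type mouse, and without knockdown mouse 3 the rise was 0.77. It missed the threshold without wild type mouse 1 (0.84, adjusted p = 0.0602), and with the dimmest 50% of genes left out Spib was not tested. Spi1, the gene of PU.1, had 10.91, 10.83 and 11.22 in the knockdown and 10.85, 10.76 and 10.91 in the wild type, a difference of 0.14 ± 0.11 that was not called (95% interval -0.10 to 0.39, adjusted p = 0.467). The difference of Spi1 was 0.03 without knockdown mouse 3.

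Named after their values were seen, Etv3 and Erf, a pair of related ETS repressors, and Elk4, a ternary complex factor, also had no overlap between groups, all with the knockdown above, at differences of 0.33 ± 0.12, 0.53 ± 0.20 and 0.09 ± 0.09. None of them was called by limma (adjusted p = 0.12, 0.129 and 0.599). With Spib, the knockdown lay above without overlap in 4 of the 13 tested, beside 19.9% of all genes tested. It lay below in 0, beside 14.4%. Erf was called higher without knockdown mouse 1 (0.74, adjusted p = 0.0246) and with array weights (0.38, adjusted p = 0.0247), and Etv3 with array weights (0.40, adjusted p = 0.00738). For Erf it was 0.31 without knockdown mouse 3 (adjusted p = 0.0839). Etv1, Elf3, Elf5 and Ehf, which are known mainly from other tissues, lay under the dimness limit and were not tested. Among these dim genes, Elf5 (difference -0.19) and a second, equally untested probe set of Etv1 (-0.55) had the knockdown below without overlap.

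**Figure D4:**
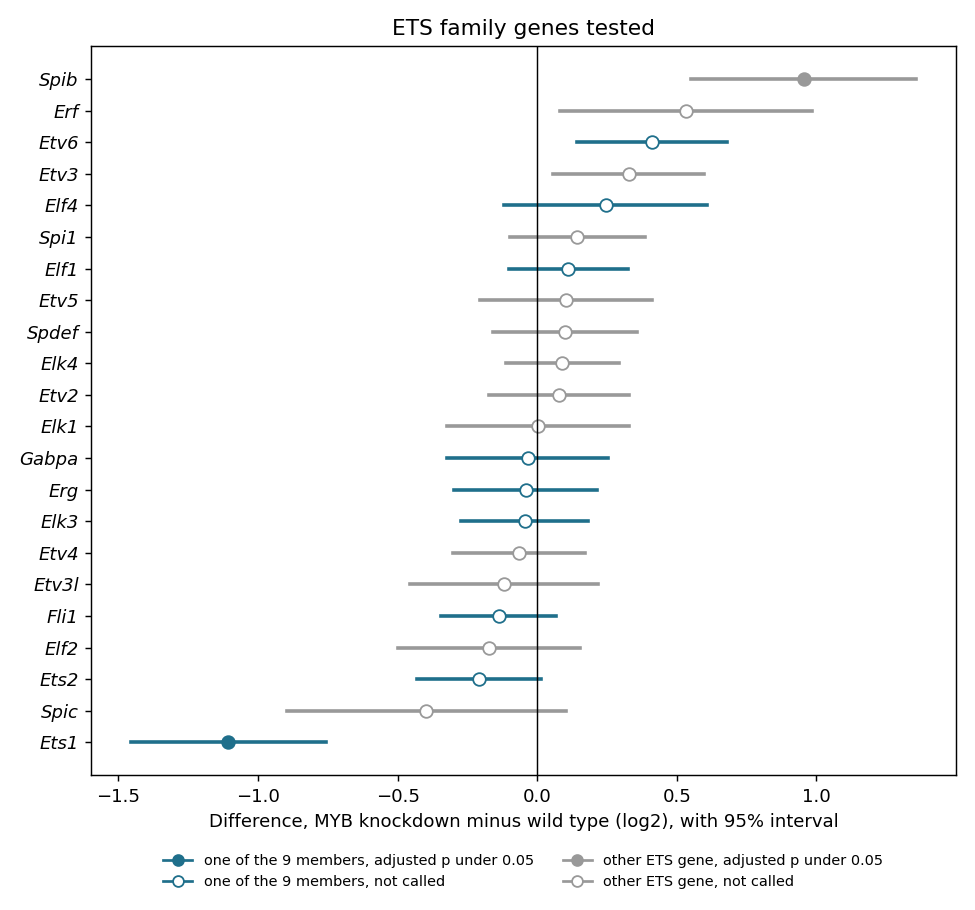
Difference between MYB knockdown and wild type (log2, horizontal axis) with its 95% interval for the ETS genes tested (rows, ordered by difference); blue marks the 9 members, grey the 13 others, and filled points have an adjusted p under 0.05. Ets1 at -1.11 and Spib at 0.96 are the 2 filled points, and the intervals of most other genes cross 0.

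ERG and FLI1 bind blood stem cell enhancers together with GATA2, RUNX1, TAL1, LYL1 and LMO2. In the list of 18 partners and cofactors, 16 were tested, 4 rose and 0 fell, beside 6.12% and 5.48% of all genes tested. The 4 were Gata2, Runx1, Tal1 and Lmo2. Gata2, a zinc finger factor of stem and mast cells, had log2 values of 9.41, 9.36 and 10.23 in the knockdown and 8.57, 8.65 and 8.62 in the wild type. It rose by 1.05 ± 0.21 (2.08-fold, adjusted p = 0.0161), with mouse 3 the highest and a rise of 0.77 without it.

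Runx1, the DNA-binding subunit of core binding factor, had 10.57, 10.53 and 10.92 in the knockdown and 10.06, 10.14 and 10.21 in the wild type, and rose by 0.54 ± 0.11 (adjusted p = 0.0188). Tal1, a basic helix-loop-helix factor, had 7.94, 8.01 and 8.11 in the knockdown and 7.45, 7.54 and 7.62 in the wild type, and rose by 0.48 ± 0.10 (adjusted p = 0.0194). Lmo2, the bridging protein of the complex, had 10.97, 10.95 and 10.85 in the knockdown and 10.58, 10.61 and 10.56 in the wild type, and rose by 0.34 ± 0.07 (adjusted p = 0.0138). In all 4 genes each knockdown mouse lay above each wild type mouse. Lyl1, a relative of Tal1 named after its values were seen, had 9.02, 9.24 and 9.41 in the knockdown and 9.40, 9.39 and 9.44 in the wild type, a difference of -0.19 ± 0.11 (adjusted p = 0.363) that was called lower without knockdown mouse 3 (-0.28, adjusted p = 0.0238) and was -0.08 without knockdown mouse 1 (adjusted p = 0.652).

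The 4 calls changed with the mice used. All 4 missed the threshold when any single wild type mouse was left out (limma's adjusted p from 0.0561 for Runx1 to 0.112 for Tal1), and Tal1 and Lmo2 missed it without knockdown mouse 2 (0.0687 and 0.0612). Their directions were the same in all 14 alternatives. Most markers of stem and early progenitor cells were also higher: 6 of 7 tested rose, beside 6.12% of all genes. Among them were Slamf1 by 1.04, Mllt3 by 0.85, Mecom by 1.43 and Hlf by 0.81. Procr, named after its values were seen, did not rise, with overlapping groups and a difference of -0.14 (limma's adjusted p = 0.502). The mean over the 7 ran from 8.15 to 8.33 in the knockdown and from 7.33 to 7.48 in the wild type. The part of cell make-up in these marker differences, or in the rises of the 4 partner genes, was not tested. Erg and Fli1, set side by side with the 4 partner genes, had differences of -0.04 and -0.14.

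**Figure D5:**
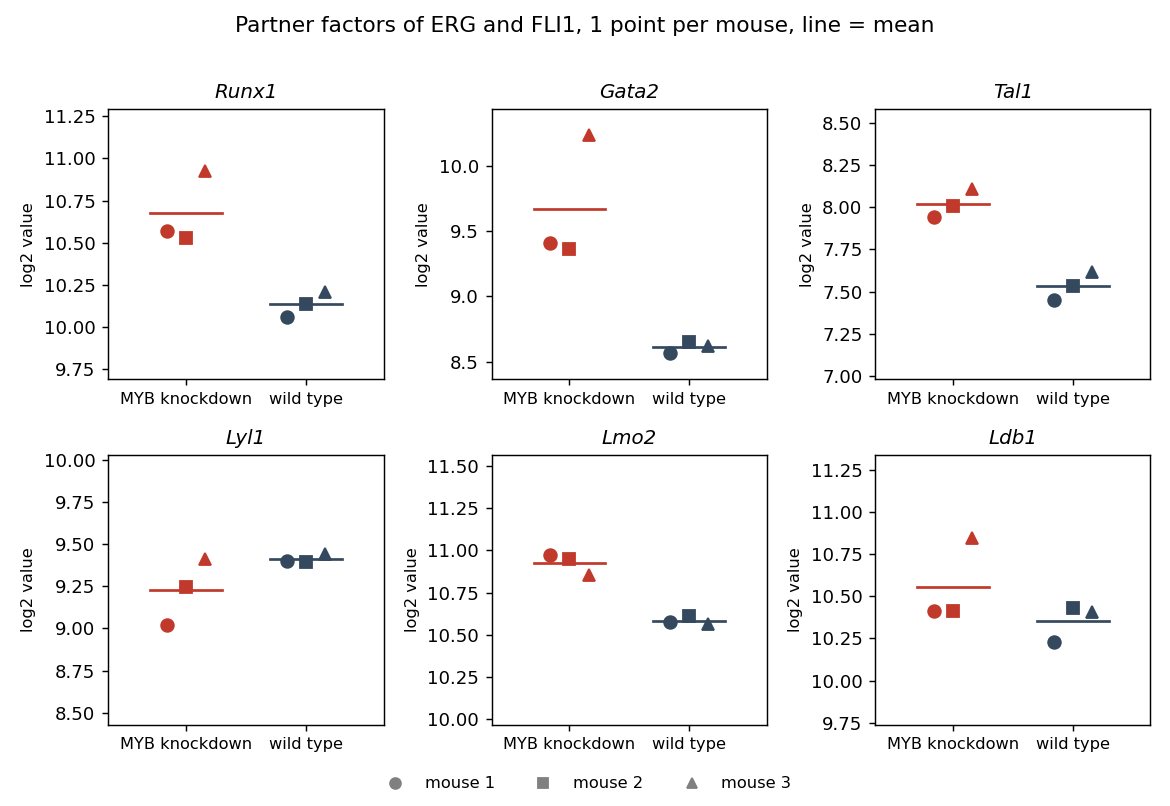
Log2 expression of 6 genes from the partner list in each mouse, with MYB knockdown left of wild type; symbols are mice 1, 2 and 3, lines are group means, and each panel has its own log2 axis that does not start at 0. The groups are apart for Runx1, Gata2, Tal1 and Lmo2, with the knockdown above, and overlap for Lyl1 and Ldb1.

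Megakaryocyte genes listed as carrying ETS sites were higher in the knockdown. Of 11 listed, 7 were tested and 5 rose, beside 6.12% of all genes tested. Like the other lists, this one was chosen with earlier results of these data known. In all 7 the knockdown lay above without overlap, beside 19.9%, with a median difference of 1.15 against 0.02 over all genes tested. Ppbp, a platelet chemokine, rose by 3.50 ± 0.20, Pf4, another platelet granule chemokine, by 1.56 ± 0.16, Gp5, a platelet glycoprotein, by 1.19 ± 0.15 and Itga2b, the integrin chain of the fibrinogen receptor, by 1.02 ± 0.10. The list also marks megakaryocytes as a cell type, and its mean level ran from 8.29 to 8.40 in the knockdown and from 6.97 to 7.15 in the wild type. Between 5 and 6 of them rose in every alternative. Fli1, the ETS factor best known at these genes, was not called.

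Endothelial genes bound by ERG and FLI1 went both ways, with 2 falls and 1 rise among 10 tested, beside 5.48% and 6.12% of all genes. Tie1, an endothelial receptor, had 6.08, 6.17 and 6.16 in the knockdown and 6.90, 6.96 and 6.81 in the wild type and fell by 0.75 ± 0.09, Emcn (endomucin) fell by 0.73 ± 0.17, and Eng (endoglin), also present on blood progenitors, rose by 0.77 ± 0.18. Of the defining endothelial genes, named after their values were seen, Cdh5 lay at 5.36 to 5.80 in the knockdown and 5.36 to 5.44 in the wild type, and Kdr at 5.13 to 5.42 in the knockdown and 5.08 to 5.33 in the wild type. Both were near the dimness limit and were the dimmest of the list. Pecam1, Icam2 and Tek were brighter, with means over the 6 arrays of 8.82, 7.55 and 6.61. Their differences were -0.02, -0.14 and 0.07, and those of Cldn5 and Esam were 0.06 and -0.29. These genes were also named after their values were seen, and limma called none of them. Among them only Esam had no overlap, with the knockdown below. The mean of the 10 ran from 6.74 to 6.85 in the knockdown and from 6.83 to 6.88 in the wild type. The list held 0 rises when any single wild type mouse or knockdown mouse 2 was left out. It held 2 without knockdown mouse 3, beside 2397 among all 13956 genes tested. In the same list 1 gene fell without knockdown mouse 1 or wild type mouse 1 or 3.

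Genes tied to the other branches were called at shares that can be set beside 11.6% of all genes tested. Of 10 serum response genes of SRF and the ternary complex factors 1 rose, Nr4a1, an orphan nuclear receptor, by 0.52 ± 0.10 (adjusted p = 0.0138). The list held 0 rises when any single wild type mouse was left out. Without knockdown mouse 3, 2 of its genes rose, beside 2397 of all 13956 genes tested. Of 9 GABP target genes 1 rose, Cox4i1, a subunit of cytochrome oxidase, by 0.32 ± 0.08 (adjusted p = 0.0423), and 1 fell, Itgb2, the beta chain that pairs with CD11b, by 0.60 ± 0.13 (adjusted p = 0.0236). The list held 0 rises when any single wild type mouse, or knockdown mouse 1 or 2, was left out, with dim genes kept in and without the trend, and 0 falls without knockdown mouse 2 and without either of wild type mice 2 and 3. Without knockdown mouse 3, 2 rose and 2 fell, beside 2397 rises and 1397 falls among all 13956 genes tested. Without knockdown mouse 1, 2 fell, beside 809 falls among all genes.

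Of 9 listed ERK kinases and factors that mark ETS proteins for degradation, 7 were tested and limma called 0. Of these 7, 3 had an unadjusted p under 0.05 by limma, beside 3578 of all 13956 genes tested. The brightest of the 7 were Dda1, with a difference of 0.21 ± 0.09, and Cop1, the ubiquitin ligase that targets ETS2, with -0.41 ± 0.19 (adjusted p = 0.169 and 0.233). Without knockdown mouse 3, 2 of this list rose, beside 2397 of all 13956 genes tested. Of the remaining marker lists, beside 5.48% of all genes 8 of 9 granulocyte genes fell (Elane with a difference of -3.69, Mpo with -1.20), 2 of 8 monocyte and macrophage genes fell (F13a1 -2.84, Mpeg1 -0.98), and 0 of 5 erythroid genes were called by limma, where 0 had an unadjusted p under 0.05 (Car1 -0.17, Tfrc 0.10). The other erythroid genes tested, Klf1, Epor and Aqp1, were named after their values were seen and had differences of 0.29, 0.38 and 0.40. The erythroid mean was 9.55 in knockdown mouse 3, against 8.94 and 8.40 in knockdown mice 1 and 2. In the wild type it ran from 8.51 to 8.93. The other monocyte and macrophage genes were named after their values were seen, and limma called none of them. Adgre1, Ccr2 and Csf1r had differences of 0.41, 0.16 and 0.05, and Klf4, Ly86 and Irf8 had -0.07, -0.13 and -0.25. For Adgre1 the knockdown lay above without overlap. Without knockdown mouse 3, 4 monocyte and macrophage genes fell and 1 rose, beside 1397 falls and 2397 rises among all 13956 genes tested. The granulocyte mean ran from 9.69 to 10.39 in the knockdown and from 11.70 to 11.91 in the wild type. The part of cell make-up in these marker differences, or in the ETS values, was not tested.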

How the data were processed

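Bone marrow cells were sorted, their RNA was converted with whole-transcript labelling kits, per the labels' protocols, and hybridised to Affymetrix arrays. For each of the 6 arrays the deposited values are log2 signals of the authors. The submitters' processing notes name Affymetrix Expression Console and limma; how background was corrected and arrays were normalized is not given in the sources used here. Arrays have no read depth, and their number limits the precision. Of 35556 probe sets, 21789 carried 1 gene symbol and were used, at the highest mean per gene. Genes in the lowest 30% by mean over the 6 arrays were left out. Knockdown was compared with wild type in limma 3.58.1 (R 4.3.3) (lmFit, then eBayes with a mean-variance trend and without covariates), with Benjamini-Hochberg adjustment over 13956 genes. The fit was tested on simulated data with independent noise for each value. That setting held no array that stood apart, as knockdown mouse 3 did. The labels name separate mice, so p-values measure the spread between animals.

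The 9 members, the gene lists and the rule for named genes were chosen with earlier results of these data known. The rule named all members, their second probe sets, Myb, Kit, Itgam, Spi1 and any other ETS gene called, up to 4 called genes per list or the 2 brightest, and the 3 nearest profiles of the 2 members of largest difference. Symbols without a probe set of their own were not analysed here. The alternatives were a replicate block, each array left out, quantile normalization, arrays centred on their medians, dim genes kept in, the lowest 50% left out, averaging the probe sets of a gene, no trend in eBayes, and array weights.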

Additional observations from a re-analysis of the deposited data

How the results depend on the processing

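The fall of Ets1 kept its direction and its call under all 14 alternatives. With 1 array left out, 1 to 3 of the 9 ETS members were called, 0 to 2 of them rises, against 663 to 3794 of all genes, 296 to 2397 rises and 367 to 1397 falls; the high end of each count of all genes is without knockdown mouse 3, and the low end without wild type mouse 1; the cause was not tested. With array weights 2 members were called, 1 of them a rise, and 3912 genes, 2351 rises and 1561 falls; the estimation of these weights stopped before its convergence tolerance. After median centring 2 members were called, 1 of them a rise (Etv6), and 1433 genes rose. Fits with the replicate number as a block called 2 members, Ets1 and 1 rise, Etv6 (adjusted p = 0.0239), and 0 rises among the GABP targets; the numbers name different mice, and deviations of same-numbered mice correlated at 0.29, -0.19 and -0.08, so they were not taken as pairs. With 1 array left out the difference ran from -0.102 to 0.059 for Erg, from -0.085 to 0.023 for Elk3 and from -0.127 to 0.084 for Gabpa. The sign turned for Erg without knockdown mouse 3 (0.059), after centring (0.034) and with array weights (0.0027), for Elk3 without wild type mouse 3 (0.023) and after centring (0.031), for Gabpa without knockdown mouse 3 (0.084) or wild type mouse 1 (0.0011), after centring (0.041) and with array weights (0.014), and for Spi1 with array weights (-0.0085). None of these was called by limma in the reported fit, and the cause was not tested. No batch is given in the sources used here, and 3 mice a group limit what can be detected.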
